A study of Homo sapiens with 30 samples.

Results

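Peaks of open chromatin were described at the 8 genes for the enzymes that make and break down retinoic acid, out of 20033 protein-coding genes in the GRCh38 gene table. The members were chosen by name: CYP26A1, CYP26B1, CYP26C1, DHRS3, RDH10, ALDH1A1, ALDH1A2 and ALDH1A3. All peaks that overlapped a gene, or the 50 kb on either side of it, were taken from each of 10 peak lists. CYP26A1 and CYP26C1 are neighbours with overlapping windows, so the 8 genes lie in 7 loci of 1020 kb in all. Peaks of all lists that touched were merged into regions, of which 236 lay at these genes out of 493444 on chromosomes 1 to 22, X and Y.

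OmniATAC-seq, which marks accessible DNA by the adapters that Tn5 transposase inserts there, was run on 50000 cells per library of the wild-type human embryonic stem cell line H1. There were 30 libraries in 10 groups of 3 biological replicates, and each group is represented by 1 list, so no value has a replicate error and no test of a difference could be made. Undifferentiated cells (hPSC) were taken on day 0. Definitive ectoderm (DE) was taken on day 1, after culture with A8301, Trametinib, C59 and LDN193189, which inhibit TGF-beta, MEK, WNT secretion and BMP signals. The groups taken on day 2 share A8301, LDN193189 and Thiazovivin. Anterior neural ectoderm (aNE) also received C59 at 1 µM. Posterior neural ectoderm (pNE) received instead TTNPB at 50 nM, FGF2 at 20 ng/mL and XAV939 at 1 µM. TTNPB is a synthetic agonist of the retinoic acid receptors and XAV939 inhibits WNT signalling, so the effect of the retinoid cannot be told apart from that of the other changes in medium. Each day 2 population was then carried to day 4 in media named telencephalon, midbrain or hindbrain (aNE_T, aNE_M, aNE_H, pNE_T, pNE_M, pNE_H). For day 4, anterior cells had been plated at 75000 and posterior cells at 150000 cells per square cm, so origin and plating density cannot be told apart either. Whether the day 4 media held a retinoid is not given in the sources used here.

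Retinoic acid is a diffusible signal that patterns the embryo along its head to tail axis, and the hindbrain forms in its presence while the forebrain and midbrain are kept largely free of it. Cells make it from retinol in consecutive oxidations: RDH10 converts retinol to retinaldehyde, and the retinaldehyde dehydrogenases ALDH1A1, ALDH1A2 and ALDH1A3 convert retinaldehyde to retinoic acid. DHRS3 reduces retinaldehyde back to retinol, and the CYP26 enzymes oxidise retinoic acid to forms that are cleared. CYP26A1 is a textbook target of the signal it removes: receptor dimers of RAR and RXR bind direct repeats of a 6-base motif near its start.

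Such a repeat was present at CYP26A1 in the RefSeq promoter sequences (GRCh38.p14), which run from 250 bases before to 50 bases after each start. The motif AGGTCA was searched on both strands, together with the variant AGTTCA, with the variant GGGTCA, and with the variant GGTTCA. Repeats of any of these spaced by 1, 2 or 5 bases are called DR1, DR2 and DR5. Of 11 windows at 7 members (RDH10 had none in the table) only the window at the second CYP26A1 start held a repeat, a DR5. A DR5 was found in 31 of 35116 windows of all genes (0.0883%), a DR2 in 14 (0.0399%) and a DR1 in 46 (0.131%). The single motif was common, in 5 of the 11 windows and in 38.6% of all, and a motif inside a repeat also counts as a single motif. A match describes letters, not a bound site. The sequences shown are the DR5 with its surroundings, at chr10:93073797-93073826 on the plus strand, and the 250 bases before the starts of CYP26A1 (first start, chr10:93073225-93073474, plus strand), CYP26C1 (chr10:93060548-93060797, plus strand), CYP26B1 (chr2:72147863-72148112, minus strand) and ALDH1A1 (chr9:72953054-72953303, minus strand). These starts are shown as examples of what the lists held, in that order: a start with peaks in some lists, a start base in no peak, a start with none in any list, and a start with peaks in hPSC and DE only. Each is written 5′ to 3′ along its gene, and capitals mark the motif on either strand.
CYP26A1 DR5: taaagaTGAACTttgggTGAACTaattgtc
CYP26A1 first start: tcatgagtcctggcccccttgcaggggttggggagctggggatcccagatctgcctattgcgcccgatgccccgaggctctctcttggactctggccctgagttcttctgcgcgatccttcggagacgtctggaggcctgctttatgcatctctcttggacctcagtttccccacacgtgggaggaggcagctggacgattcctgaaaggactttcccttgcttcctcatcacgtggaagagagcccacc
CYP26C1 start: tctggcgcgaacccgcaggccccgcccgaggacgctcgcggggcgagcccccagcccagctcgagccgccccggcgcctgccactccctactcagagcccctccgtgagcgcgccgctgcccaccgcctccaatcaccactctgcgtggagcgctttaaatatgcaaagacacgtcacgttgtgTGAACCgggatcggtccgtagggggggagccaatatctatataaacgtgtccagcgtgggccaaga
CYP26B1 start: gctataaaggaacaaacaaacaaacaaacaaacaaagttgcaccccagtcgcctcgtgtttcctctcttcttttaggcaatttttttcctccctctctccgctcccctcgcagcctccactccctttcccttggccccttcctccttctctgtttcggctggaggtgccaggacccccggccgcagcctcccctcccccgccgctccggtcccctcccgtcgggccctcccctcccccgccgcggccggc
ALDH1A1 start: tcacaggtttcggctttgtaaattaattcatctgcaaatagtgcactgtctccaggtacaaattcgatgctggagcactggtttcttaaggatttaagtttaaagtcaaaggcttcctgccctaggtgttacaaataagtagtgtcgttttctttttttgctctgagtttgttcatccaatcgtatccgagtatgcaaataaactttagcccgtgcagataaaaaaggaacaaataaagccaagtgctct
No motif lay in the printed bases of CYP26B1, ALDH1A1 or the first CYP26A1 start.

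The lists held 167792 (aNE) to 313095 (pNE_H) peaks and covered 75.5 to 129 Mb, and the second longest list, DE, held 247642. They give no read counts, so the depth behind a peak is unknown, and peaks from fewer cells with an open site and peaks from less open sites in every cell cannot be told apart. Peaks lay over a start of the neural genes SOX1, SOX2, PAX6 and ZIC1 in all 10 lists. Of 3 pluripotency genes with a start in the table, DPPA4 and ZFP42 had a start peak in all 10 lists and NANOG in hPSC, DE, aNE, pNE and aNE_T. Of 4 forebrain and midbrain genes, LHX2, EN2 and PAX2 had one in all lists and OTX2 in all but pNE_T and pNE_H. Of 4 hindbrain genes, GBX2 and EGR2 had one in all lists, HOXB1 in all but the 3 aNE-derived lists, and HOXA2 in pNE and its 3 descendants. A peak at a start is not a sign of expression: of 7 genes of other cell types with a start in the table, 6 or 7 had a peak in every list, TBXT and EOMES among them, and TP63 had one in pNE_M only.

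At the 7 loci together, peaks covered 43143 bp in aNE and 77011 bp in pNE_H, with 92 and 163 peaks, and the other lists lay between them. Per length, DHRS3 had the most, with a mean over the lists of 81.3 bp in peaks per kb of window. ALDH1A3 had 68.5 bp per kb, CYP26A1 66.5, CYP26B1 66.1, CYP26C1 64.5 and RDH10 62.8. ALDH1A2 and ALDH1A1 stood lower, at 23.0 and 20.9 bp per kb, and were also the most variable genes, with the highest list 2.35 and 3.6 times the lowest. For the other 6 genes that ratio was between 1.56 (CYP26A1) and 2.08 (RDH10). Of the 236 regions, 48 were open in all 10 lists (20.3%, against 16.5% of all regions), 26 only in hPSC or DE (11.0% against 12.9%), and 97 in neither of them (41.1% against 44.3%). Within the last 2 of these classes lie the regions open in 1 list, 69 of the 236 (29.2% against 33.5%), 21 of them in pNE_H (8.9% against 10.6%). These shares were near those of all regions.

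**Figure D1:**
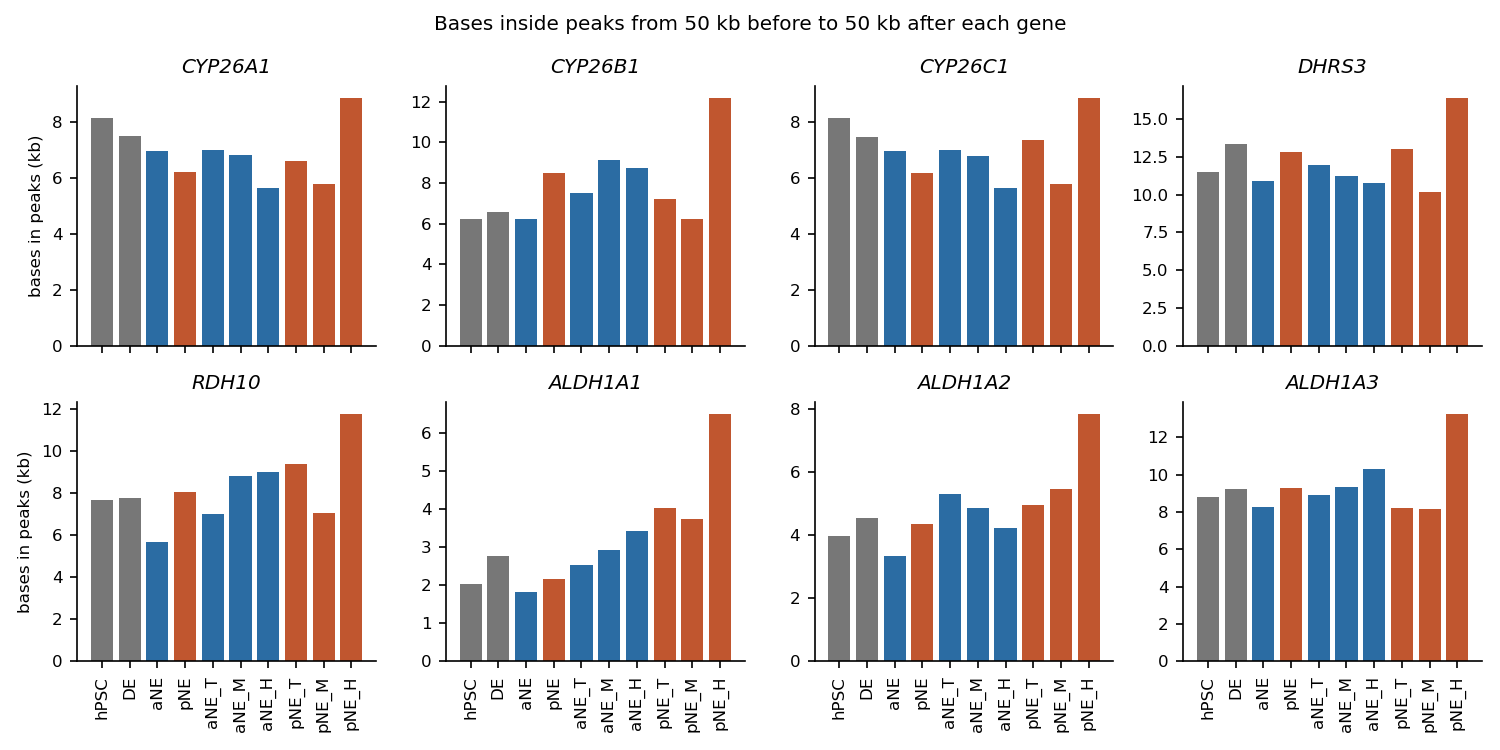
Bases inside peaks (kb) from 50 kb before to 50 kb after each of the 8 genes, 1 bar per peak list, with hPSC and DE in grey, aNE and its derivatives in blue, and pNE and its derivatives in orange. The pNE_H bar is the highest in all 8 panels, and its list also covered the most bases overall (129 Mb).

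On day 2, no member differed between pNE and aNE by 1.5-fold or more in covered bases. None of 8 was higher in pNE, where 4.56% of 19256 protein-coding genes were, and none was lower, where 0.608% were. The median ratio of pNE to aNE was 1.19 for the members and 1.05 for all genes, and the pNE list as a whole covered 1.14 times the bases of the aNE list. The retinaldehyde-producing enzyme RDH10 had the highest ratio, with 8044 bp in pNE and 5647 bp in aNE (log2 ratio 0.51). CYP26B1 had 8488 and 6224 bp (0.45), ALDH1A2 4343 and 3327 bp (0.38), and ALDH1A1 2164 and 1804 bp (0.26). DHRS3 had 12821 and 10928 bp (0.23), and ALDH1A3 had 9258 and 8247 bp (0.17). The shared locus of CYP26A1 and CYP26C1 lay on the other side, with 6188 bp in pNE and 6966 bp in aNE (-0.17). Of all genes compared, 8.36% had a lower ratio than that locus. The share with a lower ratio was 93.8% for RDH10, 91.9% for CYP26B1 and 89.2% for ALDH1A2. It was 79.8% for ALDH1A1, 76.4% for DHRS3 and 67.7% for ALDH1A3.

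**Figure D2:**
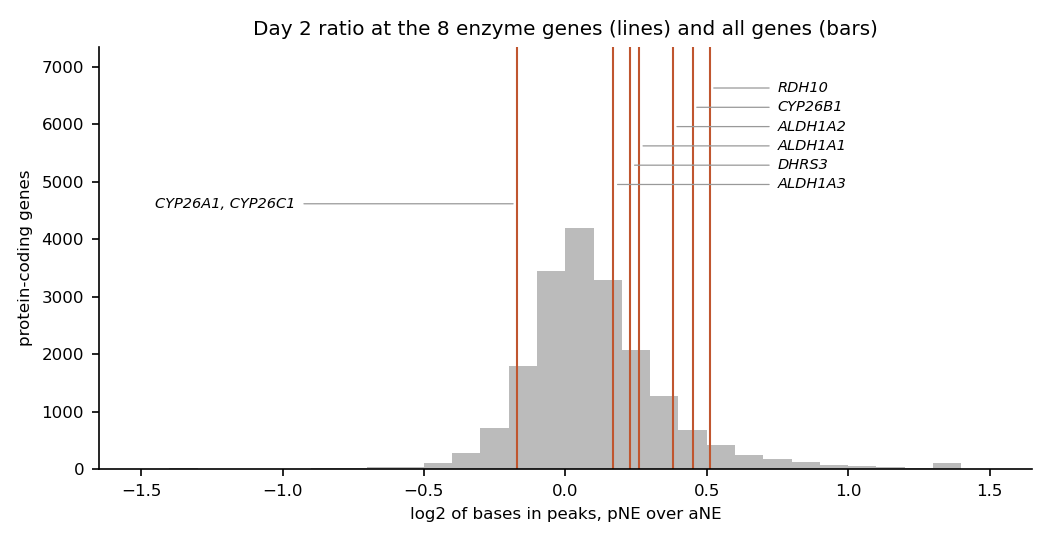
Histogram of the log2 ratio of bases in peaks, pNE over aNE, over 19243 protein-coding genes (grey bars, with the 102 genes beyond 1.4 in either direction gathered in the end bars, and genes at 0 in either list left out), with a line at each of the 8 enzyme genes. The lines run from -0.17 (CYP26A1 and CYP26C1) to 0.51 (RDH10), inside the range of most genes.

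Counted as regions, 30 of the 110 member regions open in aNE or pNE were open in pNE only (27.3%, against 28.5% of all regions open in either), and 11 in aNE only (10.0% against 12.4%). RDH10 had 7 of the regions open in pNE only, ALDH1A3 6, DHRS3 5, ALDH1A2 5, CYP26B1 4, CYP26A1 and CYP26C1 the same 2, and ALDH1A1 1. DHRS3 had no region open in aNE only. The members thus had about the share of pNE regions that the genome as a whole had.

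CYP26A1 (chr10:93073475-93077885, plus strand), the main enzyme of retinoic acid breakdown in early embryos, had RefSeq starts at 93073475 and 93073893. Its window was covered over 8129 bp in hPSC, 7480 in DE, 6966 in aNE, 6188 in pNE, 6998 in aNE_T, 6791 in aNE_M, 5645 in aNE_H, 6590 in pNE_T, 5771 in pNE_M and 8831 in pNE_H. The number of peaks was 21, 21, 14, 16, 13, 14, 14, 19, 17 and 19 in the same order. The aNE-derived values (5645 to 6998 bp) and the pNE-derived values (5771 to 8831 bp) overlapped.

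At the starts themselves the lists differed in where the peaks lay. The DR5 (chr10:93073803-93073819), 74 to 90 bases before the second start, lay wholly inside a peak in DE, aNE, pNE and aNE_T. In the other 6 lists no peak touched it, and the nearest peak was 64 bp away in hPSC, 33 in aNE_M, 133 in aNE_H, 69 in pNE_T, 97 in pNE_M and 99 in pNE_H. So both day 2 lists, with and without TTNPB in the medium, had the repeat in a peak, and of the day 4 lists only aNE_T did. Of the 300 bases around the second start, peaks covered 156 in hPSC, 300 in DE, aNE, pNE and aNE_T, 130 in aNE_M, 0 in aNE_H, 129 in pNE_T, 27 in pNE_M and 25 in pNE_H. Around the first start they covered 65 bases in DE, 132 in aNE, 64 in pNE, 119 in aNE_T and 0 in the other 6 lists. The region over the starts (chr10:93073406-93075458) had peaks downstream of them in every list. Over the whole region, including the part before the starts, peaks covered 904 (pNE_M) to 1774 bp (aNE_T).

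Upstream of the first start the adjoining regions went different ways. The region chr10:93072419-93073260, which ends 0.2 kb before the start, was covered over 383 bp in hPSC, 563 in DE, 831 in aNE and 204 in pNE, and by no peak in any of the 6 day 4 lists. The next region, chr10:93071825-93072363, 1.1 kb before the start, was open in all 10 lists: over 208 bp in hPSC, 220 in DE, 289 in aNE, 247 in aNE_T, 215 in aNE_M, 222 in aNE_H but over 524 in pNE, 419 in pNE_T, 478 in pNE_M and 520 in pNE_H. The peaks in pNE and its 3 descendants were thus all wider than in the other 6 lists, with the narrowest 1.45 times the widest of the others. Of 81658 regions open in all lists, 55 (0.0674%) had a ratio at least as high, and 1.35% had the same order of lists at any ratio. This region was singled out after its values were seen, and it was the only 1 of the 48 member regions open in all lists with that order. No member region had the reverse order (0.8% of all regions did).

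**Figure D3:**
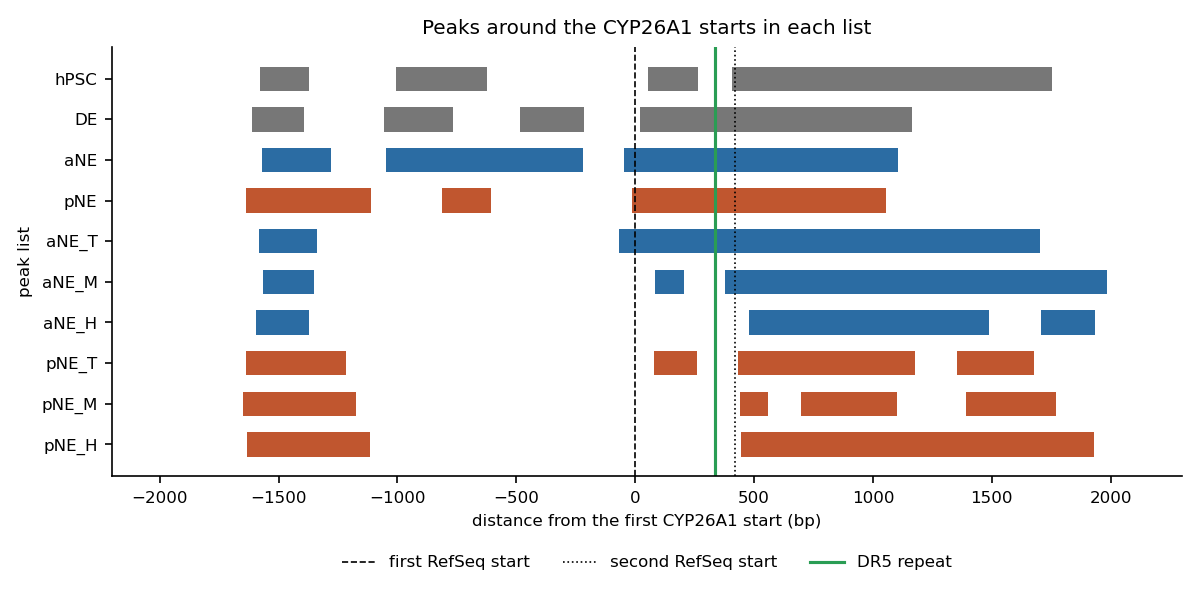
Peaks (bars) of the 10 lists around the CYP26A1 starts, by distance from the first start in bp, with both RefSeq starts and the DR5 repeat as vertical lines. The repeat lies inside a peak in DE, aNE, pNE and aNE_T only, and the leftmost peak is widest in pNE and its 3 descendants (419 to 524 bp).

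Farther away, the locus had regions that separated the day 4 lists by origin. The regions chr10:93096982-93097769, 23.5 kb downstream of the start of CYP26A1, and chr10:93110280-93110533, 36.8 kb downstream, were open in all 3 pNE-derived lists and in no aNE-derived list. The former had 175 bp in pNE_T, 549 in pNE_M and 218 in pNE_H, and was also open in hPSC (113 bp), DE (421 bp) and pNE (124 bp) but not in aNE. The latter had 254, 122 and 109 bp in the same day 4 lists and was closed in all lists of days 0 to 2. The reverse pattern was seen at chr10:93051264-93051465, in the neighbouring gene EXOC6, with 138 bp in aNE_T, 129 in aNE_M and 194 in aNE_H. That region was also open in hPSC (113 bp) and DE (126 bp) and closed in both day 2 lists. A region in EXOC6 at chr10:93055852-93056403 was open in DE (194 bp) and aNE (523 bp) alone. The locus also held regions of the early lists: 6 of the 33 in the CYP26A1 window were open in hPSC or DE and nowhere else. Of all member regions 11.0% were, and of all regions 12.9%.

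CYP26C1 (chr10:93060798-93069540, plus strand), a related enzyme that lies 5′ of CYP26A1 and shares most of its window, had the same covered bases as CYP26A1 in 8 lists, and 7340 bp in pNE_T and 8846 bp in pNE_H. No peak covered its start base in any list. Of the 250 bases printed for it, peaks covered 210 in aNE_H, 125 in pNE_M and 91 in pNE_T. The other lists had 57 in DE and aNE, 56 in aNE_T, 55 in pNE_H, 31 in pNE and 0 in hPSC and aNE_M. Neither origin nor medium separated these values. Inside the gene, chr10:93061747-93063429 was open in all 10 lists, over 624 (DE) to 1680 bp (aNE_M).

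CYP26B1 (chr2:72129238-72147862, minus strand), the CYP26 enzyme known from the hindbrain and limb, had 6228 bp in hPSC, 6564 in DE, 6224 in aNE, 8488 in pNE, 7513 in aNE_T, 9117 in aNE_M, 8753 in aNE_H, 7185 in pNE_T, 6220 in pNE_M and 12157 in pNE_H. Among the day 4 lists, the pNE-derived values (6220 to 12157 bp) lay on both sides of the aNE-derived ones (7513 to 9117 bp). None of the 300 bases around its start was in a peak of any list, although regions 1.1 and 2.0 kb before the start were open in 9 and in 10 lists. The widest region open in all lists lay inside the gene, at chr2:72136135-72138052, with 647 bp in aNE, 1261 in pNE and 1918 in pNE_H.

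The widest CYP26B1 region open in pNE and not in aNE was chr2:72182774-72183791, in the neighbouring gene EXOC6B 34.9 kb upstream of the start. It was covered over 935 bp in pNE_H, 646 in pNE, 585 in aNE_H, 389 in aNE_M and 146 in pNE_T, and by no peak in the other 5 lists. A region 10.3 kb upstream (chr2:72158195-72158897) had peaks in pNE (310 bp), aNE_M (142), aNE_H (420), pNE_T (195), pNE_M (656) and pNE_H (320), and none in hPSC, DE, aNE or aNE_T. At both regions the anterior cells thus had peaks after midbrain and hindbrain medium but not after telencephalon medium. The widest region open in aNE and not in pNE, chr2:72138250-72138609 inside the gene, had 351 bp in aNE and 216 bp in pNE_T.

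DHRS3 (chr1:12567910-12618210, minus strand), the retinaldehyde reductase, had 11476 bp in hPSC, 13329 in DE, 10928 in aNE, 12821 in pNE, 11952 in aNE_T, 11253 in aNE_M, 10759 in aNE_H, 13045 in pNE_T, 10179 in pNE_M and 16366 in pNE_H. The values of the day 4 origins overlapped. The 300 bases around its first start were wholly in a peak in all 10 lists, which held for no start of the CYP26 genes. Around its second start, peaks covered only 26 bases in hPSC and 12 in aNE_T, and none in the other lists. The widest region open in all lists, chr1:12594889-12596724, ranged from 1471 (pNE_M) to 1721 bp (hPSC). As merged over the lists it reached the third RefSeq start, but in aNE_T, aNE_M and aNE_H no peak covered that start base. Of the 300 bases around it, peaks covered 10, 17 and 1 in those lists. The region chr1:12525322-12525954, beyond the 3′ end of the gene, was closed in hPSC and aNE and open in the other 8 lists, over 158 bp in DE, 382 in pNE, 164 in aNE_T, 503 in aNE_M, 507 in aNE_H, 391 in pNE_T, 478 in pNE_M and 632 in pNE_H. A small region at chr1:12549005-12549294 was open in the pNE-derived lists only, over 122, 256 and 161 bp in pNE_T, pNE_M and pNE_H.

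RDH10 (chr8:73294602-73325281, strand not in the table), the retinol dehydrogenase of embryonic retinoic acid synthesis, had 7652 bp in hPSC, 7768 in DE, 5647 in aNE, 8044 in pNE, 6992 in aNE_T, 8805 in aNE_M, 8992 in aNE_H, 9347 in pNE_T, 7042 in pNE_M and 11748 in pNE_H. aNE was the lowest list. The widest region, chr8:73293292-73295963, spans the lower end of RDH10 and the neighbouring ribosomal gene RPL7, and was covered over 2463 to 2646 bp in all lists, so its peak cannot be assigned to either gene. The widest region open in pNE and not aNE, chr8:73261160-73261980 in C8orf89, had 419 bp in pNE and 780 bp in aNE_H. It was closed in aNE and pNE_T. RDH10 held both member regions outside the CYP26A1 locus that were open in all aNE-derived and no pNE-derived lists. At chr8:73325637-73326220, these had 582 bp in aNE_M, 516 in aNE_H and 218 in aNE_T, and DE (393 bp) and pNE (437 bp) were open as well. At chr8:73365453-73365966, they had 314, 389 and 150 bp in that order, and pNE had 198 bp. Both were therefore open in pNE on day 2 and in none of the lists made from it.

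ALDH1A1 (chr9:72900671-72953053, minus strand), a retinaldehyde dehydrogenase of the dorsal eye and of midbrain dopamine neurons, had 2034 bp in hPSC, 2772 in DE, 1804 in aNE, 2164 in pNE, 2534 in aNE_T, 2920 in aNE_M, 3413 in aNE_H, 4034 in pNE_T, 3735 in pNE_M and 6494 in pNE_H. All 3 pNE-derived lists lay above all 3 aNE-derived lists, and no other member showed this. That is 1 of 8 members, against 8.52% of 19374 genes, and for the reverse order 0 of 8 against 1.24%. The order rested on 1 region, chr9:72983122-72984437. It held 1309 bp of the total in pNE_T, 748 in pNE_M, 1288 in pNE_H, 126 in aNE_H and none in aNE_T or aNE_M. Without its bases the values of the origins overlap. In aNE, ALDH1A1 was 0.65 times DE, the only member past 1.5-fold in that step, where 10.7% of genes were lower. It was not past that fold per list total (log2 ratio -0.30), with windows of 100 kb (-0.36) or with lists cut to equal length (-0.40). With windows of 10 kb, no member kept the 2 origins apart on day 4.

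The start of ALDH1A1 and some regions around it went in opposite directions. The region over the start, chr9:72952972-72953426, had 306 bp in hPSC and 252 bp in DE and no peak in the other 8 lists. Of the 300 bases around the start, peaks covered 151 in hPSC and 252 in DE. By contrast, chr9:72983122-72984437, 30.1 kb upstream, had 126 bp in aNE_H, 1309 in pNE_T, 748 in pNE_M and 1288 in pNE_H and none in any list of days 0 to 2. A region 36.7 kb upstream (chr9:72989754-72990063) had 124 bp in pNE and 148 to 303 bp in all 6 day 4 lists, and none in hPSC, DE or aNE. Within the gene, chr9:72947784-72948475 had 692 bp in pNE_T and 252 in pNE_H alone. These added peaks lay away from the start, which had none on day 4. Nearer to the start, 1.6 kb into the gene, a peak of 248 bp was present in aNE_M alone. Not every region around the gene gained peaks: chr9:72899690-72900024, beyond the 3′ end, had them in hPSC, DE, aNE and aNE_T only.

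**Figure D4:**
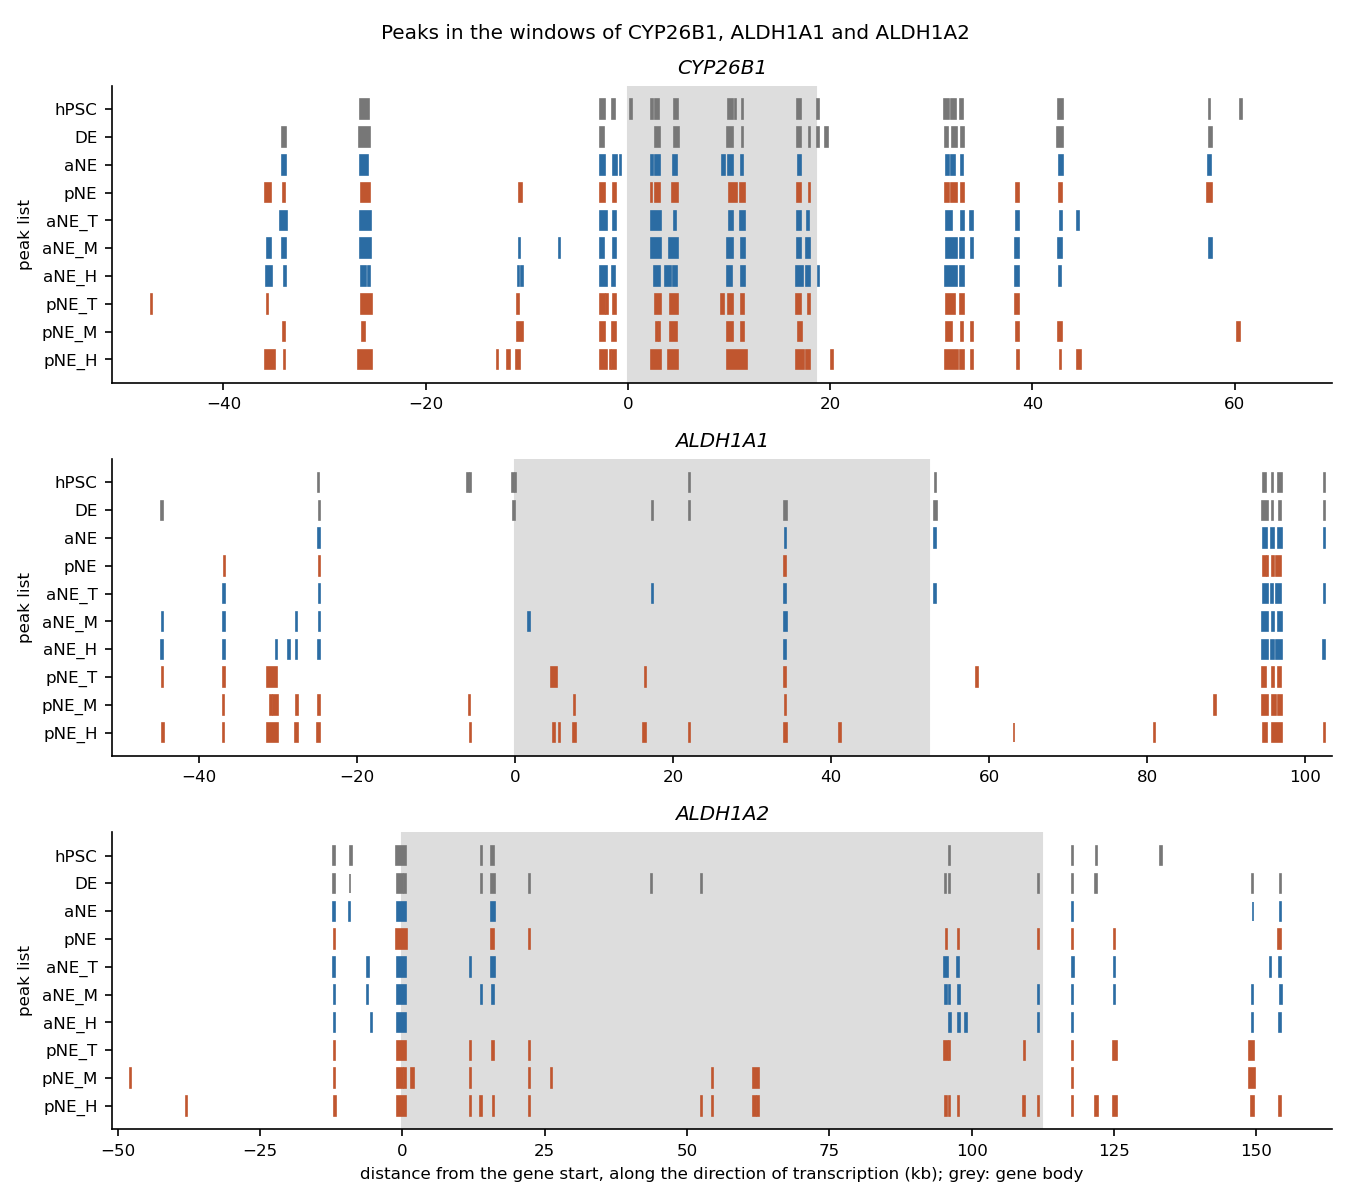
Peaks (ticks to scale) of the 10 lists in the windows of CYP26B1, ALDH1A1 and ALDH1A2, by distance in kb from the gene start along the direction of transcription, with the gene body in grey. At ALDH1A1 the peak over the start is present in hPSC and DE only, and the region 30.1 kb upstream is wide in the 3 pNE-derived lists (748 to 1309 bp).

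ALDH1A2 (chr15:57953429-58065711, minus strand), the main retinoic acid producing enzyme of the trunk mesoderm next to the neural tube, had 3974 bp in hPSC, 4543 in DE, 3327 in aNE, 4343 in pNE, 5284 in aNE_T, 4840 in aNE_M, 4217 in aNE_H, 4940 in pNE_T, 5455 in pNE_M and 7832 in pNE_H. The origins overlapped on day 4 (4217 to 5284 against 4940 to 7832 bp). Its first start was wholly in a peak in all lists, in a region of 1404 (pNE_M) to 1889 bp (pNE), whereas no list had a peak within the 300 bases around the second start. Regions inside the gene carried much of the variation. The region chr15:58003062-58004159 had 1095 bp in pNE_M and 864 bp in pNE_H and no peak in the other 8 lists. The region chr15:58043261-58043482 had 189 bp in pNE, 150 in pNE_T, 124 in pNE_M and 197 in pNE_H, and also 152 bp in DE. Beyond the 3′ end, chr15:57916010-57917066 was open in DE (175 bp), aNE (125), aNE_M (177) and aNE_H (295), and wider in pNE_T (874), pNE_M (1057) and pNE_H (558). It was closed in pNE itself, as in hPSC and aNE_T.

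ALDH1A3 (chr15:100879831-100916626, plus strand), a retinaldehyde dehydrogenase of the ventral eye and nasal region, had 8794 bp in hPSC, 9253 in DE, 8247 in aNE, 9258 in pNE, 8921 in aNE_T, 9317 in aNE_M, 10300 in aNE_H, 8205 in pNE_T, 8160 in pNE_M and 13252 in pNE_H. Outside pNE_H the lists lay close together, between 8160 and 10300 bp. Its start region, chr15:100878503-100880937, was open over 1892 to 2334 bp in every list. In the neighbouring kinase gene LRRK1, chr15:100966514-100967505 was open in the pNE-derived lists only, over 907 bp in pNE_T, 575 in pNE_M and 992 in pNE_H. The ALDH1A3 window ended inside that region, so only its first bases count in those totals. The widest region open in pNE and not in aNE, chr15:100830269-100830954, 48.9 kb upstream, had 245 bp in pNE, 423 in aNE_M and 328 in pNE_H. The widest open in aNE and not in pNE, chr15:100934941-100935510 in LRRK1, had 238 bp in aNE and was open in 6 other lists.

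Over the 3 steps up to day 2, the members' median ratios lay near those of all genes, while single members lay farther out. From hPSC to DE none of 8 passed 1.5-fold in either direction (3.26% of genes were higher and 0.6% lower). From DE to aNE all 8 ratios were below 1, with a median of 0.86 against 0.85 for all genes. None was higher, as were 0.16% of genes, and ALDH1A1 was the member that was lower. From DE to pNE none passed in either direction (1.5% of genes higher, 6.96% lower), and the median ratio was 0.96 against 0.89. The member farthest out was ALDH1A1 in DE over hPSC (1.36, with 93.4% of genes lower) and in aNE over DE (0.65, with 9.2% lower). In pNE over DE it was CYP26B1 (1.29, with 96.3% of genes lower). These comparisons share the DE list.

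From day 2 to day 4, ALDH1A1 passed 1.5-fold in 5 of the 6 comparisons, and no member was lower by that fold in any. In aNE_T over aNE, 1 member passed, ALDH1A2 with a ratio of 1.59 (3.53% of genes were higher). In aNE_M over aNE, ALDH1A1 (1.62) and RDH10 (1.56) passed (6.7% of genes), and in aNE_H over aNE the same genes did, at 1.89 and 1.59 (5.65%). In pNE_T over pNE only ALDH1A1 passed, at 1.86 (3.39%), and likewise in pNE_M over pNE, at 1.73 (2.16%). In pNE_H over pNE, ALDH1A1 (3.0) and ALDH1A2 (1.8) passed, where 23.1% of genes did. The shares of genes that were lower were 0.562%, 0.867%, 1.97%, 2.25%, 3.97% and 0.311% in that order. The comparisons of each origin share a day 2 list, and aNE was the shortest list. Of these 9 calls only that of ALDH1A1 in pNE_H over pNE held under every alternative tried. With windows of 10 kb, ALDH1A1 in aNE_H over aNE turned to the other side (log2 ratio -0.47), and RDH10 in aNE_M and aNE_H over aNE no longer passed (0.30 and 0.25).

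Between origins in the same medium, 5 of 8 members were higher in pNE_H than in aNE_H, where 28.6% of genes were: ALDH1A1 (1.9), ALDH1A2 (1.86), CYP26C1 (1.57), CYP26A1 (1.56) and DHRS3 (1.52). None of the 8 was lower (0.248% of genes). CYP26A1 and CYP26C1 share most of their window, so their calls are not separate, and both enter the members' median. The members' median ratio of 1.54 equalled the ratio of the total bases of the lists (1.54), against 1.32 for all genes. Divided by the totals of the lists, none of the 5 passed, and DHRS3 was at -0.02 on the log2 scale. In telencephalon medium only ALDH1A1 was higher in pNE_T than in aNE_T (1.59, with 4.45% of genes higher and 2.49% lower), and not with peaks set to 500 bp (log2 ratio 0.24). The region chr9:72983122-72984437 held 1309 of its 4034 bp in pNE_T and had no peak in aNE_T. In midbrain medium no member passed in either direction (1.77% of genes higher, 5.67% lower), and CYP26B1 had the lowest ratio, 0.68. Counted over the gene alone, without its flanks, 5 of 8 members were lower in pNE_M by 1.5-fold or more. The share of all genes was not computed for the gene alone, so whether that count is unusual is not known. Within the anterior origin, no member passed between hindbrain and telencephalon medium (2.71% of genes higher, 3.8% lower). Within the posterior origin, CYP26B1 (1.69), ALDH1A3 (1.62), ALDH1A1 (1.61) and ALDH1A2 (1.59) were higher in pNE_H than in pNE_T, where 22.4% of genes were, and none was lower (0.321%). Per list total none of these 4 passed, and ALDH1A3 was at -0.26 on the log2 scale when only peaks nearest to its own ends were counted.

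**Figure D5:**
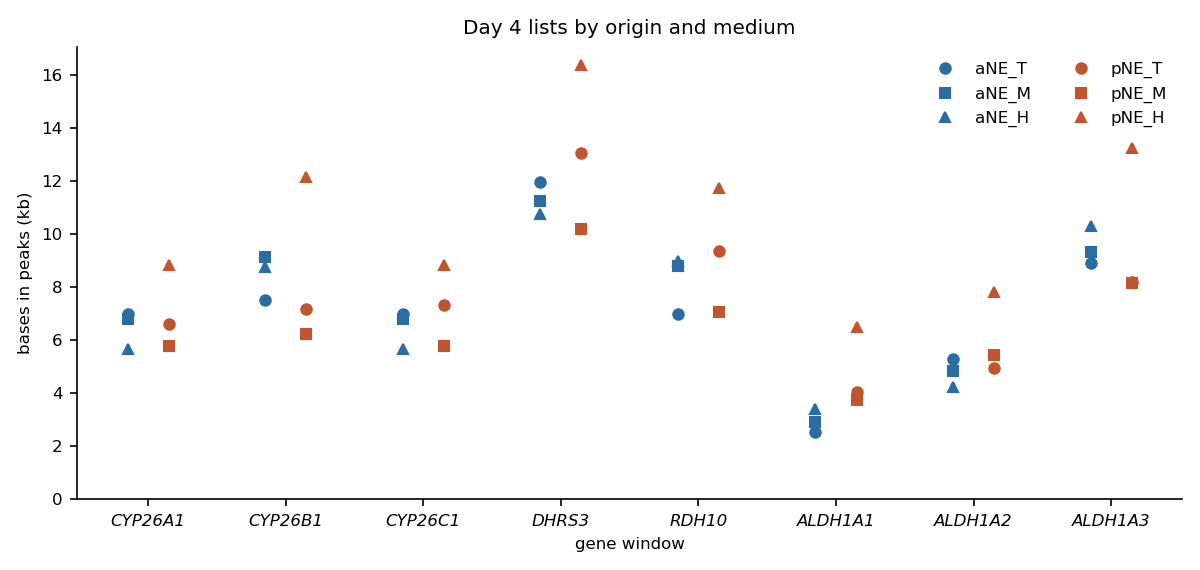
Bases inside peaks (kb) in the 8 gene windows for the 6 day 4 lists, with aNE-derived lists in blue and pNE-derived lists in orange, and the medium shown by the marker shape. Only at ALDH1A1 do all 3 pNE-derived lists (3735 to 6494 bp) lie above all 3 aNE-derived lists (2534 to 3413 bp).

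As regions, 5 of the 236 were open in all 3 pNE-derived and no aNE-derived lists (2.12%, against 2.33% of all regions), and 3 in the reverse pattern (1.27% against 0.633%). All 8 have been described: 3 lie at the CYP26A1 and CYP26C1 locus, 2 at RDH10, and 1 each at DHRS3, ALDH1A2 and ALDH1A3.

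The other genes of the pathway, 29 in a list of receptors, binding proteins, further retinoid enzymes and retinoic acid responsive genes, were read in the same way. The list was drawn up with earlier results of these data known, so its counts are not an independent comparison with all genes. In pNE over aNE, 1 of 29 was at least 1.5-fold higher and none lower. That gene was ADH7, an alcohol dehydrogenase that can oxidise retinol, with 1779 bp in aNE and 3286 bp in pNE. The median ratio was 1.08, and 1.145 for the 8 responsive genes, all of which were above 1. Over all genes, the median ratio was 1.05, 66.2% were above 1 and 4.56% were called higher. The responsive genes' median thus lay above that of all genes. It was near the ratio of the list totals, 1.14, which compares summed bases and is not a median over genes. On day 4, all 3 pNE-derived lists lay above all 3 aNE-derived lists at 7 of the 29 genes: the receptor gene RARB and 6 responsive genes, HOXB1, MEIS2, TSHZ1 and STRA8 among them (8.52% of all genes). For the receptor gene RARB the ranges were 26421 to 46015 bp against 18832 to 20149 bp, and for HOXB1 12086 to 15432 against 7484 to 7859 bp. None of the 5 binding proteins or 10 further enzymes showed that order, and among the 8 enzyme genes described here only ALDH1A1 did.

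The gene whose windows followed a member's most closely across the 10 lists, after division by the list totals, was sought among 18982 protein-coding genes. For CYP26A1 the first 3 were MAP2K1, ESPN and DGCR8, each with a Pearson r of 0.98. For others it was LCP1 for CYP26B1 (0.95), MPHOSPH8 for DHRS3 (0.94), INS for RDH10 (0.92), ABCA12 for ALDH1A1 (0.95), LRTM1 for ALDH1A2 (0.91) and LRRC39 for ALDH1A3 (0.96). These values describe 10 lists of unequal length, and with so many genes compared a close match to some gene is found for any pattern.

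The 50 kb limit of the windows left out regions just beyond it. At ALDH1A2 a region at chr15:58115716-58115911, open in 5 lists, began 4 bp outside, and the nearest inside, chr15:58113356-58113627, was open in 1. At CYP26A1 the window edge lay inside chr10:93023013-93023496, open in pNE_T (482 bp) and pNE_H (195 bp), and the next region outside was open in 1 list.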

How the data were processed

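The authors deposited ATAC-seq peaks as 1 list per group, each peak with its start and end position and no score, fold enrichment, p-value or summit. Per the submitters' processing notes, FastQC, Bowtie2, MACS2, bedtools, featureCounts and deepTools were used with build hg38. The caller's threshold and how the 3 replicates were combined are not given in the sources used here, and a different threshold between lists would move every count. Lists were matched to groups by the population name.

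The members and gene lists were chosen with earlier results of these data known. For each of 20033 protein-coding genes of the GRCh38 RefSeq table, peaks overlapping the gene with 50 kb either side by at least 1 bp were counted, and the bases inside peaks summed. A gene was called at a ratio of at least 1.5 with at least 500 bp in the higher list, and shares of genes called are over genes with 500 bp in either list. Peaks of all lists overlapping by at least 1 bp were merged, and a region counted as open in every list with a peak in it.

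The named regions were, per gene, those over a start, the widest open in pNE and not aNE and the reverse, those open in the 3 day 4 lists of 1 origin only, and the widest open in all lists. Other regions were named after their values were seen. Likeness was Pearson's r over lists among genes with a mean of at least 1000 bp in peaks whose window overlaps no member window, and that of CYP26C1 is not reported here. Motifs were searched in RefSeq promoter sequences of 300 bases. The sequences of the peaks and the exons were not used here. Alternatives were windows of 10 and 100 kb or the gene alone, lists reduced to the widest peaks of equal number, division by list totals, peaks set to 500 bp, peaks nearest to a gene's own ends, a 2-fold threshold, and regions open at 50% cover. The code was tested on simulated windows. Python 3.11.15, numpy 2.4.6, pandas 2.3.3 and matplotlib 3.10.9 were used.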

Additional observations from a re-analysis of the deposited data

Results flagged for a closer look

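At 4 genes the change from telencephalon to hindbrain medium went in opposite directions in the day 4 lists of the 2 origins. At CYP26A1, aNE_H had -1353 bp in peaks relative to aNE_T, whereas pNE_H had 2241 bp more than pNE_T, a difference of 3594 bp. At the overlapping CYP26C1 window the values were -1353 and 1506 bp, a difference of 2859 bp. At DHRS3 they were -1193 and 3321 bp, a difference of 4514 bp. At ALDH1A2 they were -1067 and 2892 bp, a difference of 3959 bp. With 1 list per group these differences were not tested. Of all genes, 30.9% had a ratio over 1 in aNE_H over aNE_T and 95.4% in pNE_H over pNE_T, so opposite directions were common among all genes. Divided by the totals of the lists, the ratios in aNE_H over aNE_T and in pNE_H over pNE_T were 0.84 and 0.93 at CYP26A1, 0.84 and 0.83 at CYP26C1 and 0.93 and 0.87 at DHRS3, so that both origins went the same way. At ALDH1A2 they were 0.83 and 1.1. The pNE_H list as a whole held 313095 peaks, more than any other list, and aNE_H and aNE_T held 203961 and 197832.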

How the results depend on the processing

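In all, 840 log2 ratios of single members were recomputed under the alternatives. Of these, 708 were counted as unchanged, 53 no longer passed 1.5-fold, 48 newly passed, 28 moved and 3 turned. Unchanged ratios stayed past 1.5-fold in the same direction or, if short of it at first, shifted by less than that fold. A change of direction was counted only for ratios past 1.5-fold, so the 708 include some such changes. For example, the ratio of CYP26A1 in aNE over DE was 0.93, and 1.16 per list total. The 3 that turned were ALDH1A1 in aNE_H over aNE (-0.47 with 10 kb windows), DHRS3 in pNE_H over aNE_H (-0.02 per list total) and ALDH1A3 in pNE_H over pNE_T (-0.26 with peaks nearest to its own ends). These alternatives were run on the members and the other pathway genes alone. The counts that follow under them therefore have no share of all genes or regions beside them. Members higher in pNE than aNE were 0, and 1 with the gene alone or 500 bp peaks. Members lower in pNE were 0, and 1 with peaks nearest to their own ends. Members higher in DE than hPSC were 0, and 1 with the gene alone, equal list length, 500 bp peaks or nearest peaks, and those lower were 0 and 1 with the gene alone. Members lower in aNE than DE were 1, 0 with 100 kb windows, equal length, list totals or 2-fold, 2 with the gene alone and 3 with 500 bp peaks. Members lower in pNE than DE were 0, 1 with 10 kb windows or the gene alone, and 2 with 500 bp or nearest peaks. Members higher in aNE_H than aNE_T were 0 and 1 with nearest peaks, and those lower 0, and 1 with 10 kb windows or nearest peaks. Members higher in pNE_H than pNE_T were 4, 1 at equal length and 0 per list total or at 2-fold. In pNE_T over aNE_T 1 was higher, and 0 at 2-fold. Members lower in pNE_M than aNE_M were 0, 1 with 10 kb windows or nearest peaks, and 5 with the gene alone. Members higher in pNE_H than aNE_H were 5, 2 with 10 kb windows or 500 bp peaks, 1 at equal length and 0 per list total or at 2-fold. Of the other pathway genes 1 was higher in pNE than aNE, 2 with 10 kb windows, 3 with the gene alone, 6 with 500 bp peaks, 4 with nearest peaks and 0 at 2-fold, and 0 were lower, 1 at equal length or per list total.

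Members with the pNE-derived lists all above the aNE-derived ones were 1, 0 with 10 kb windows, 2 with 100 kb and 3 with 500 bp peaks. Regions open in pNE and not aNE were 30, 14 with 10 kb windows, 10 with the gene alone and 19 at equal length, and those open in aNE and not pNE 11, 7 with 10 kb, 20 with 100 kb, 2 with the gene alone and 6 with nearest peaks. Regions open in all pNE-derived and no aNE-derived lists were 5, 1 with 10 kb or the gene alone, 12 with 100 kb, 2 at equal length and 3 with 500 bp peaks, and in the reverse pattern 3, 0 with the gene alone and 1 at 50% cover. The causes of these shifts were not tested, beyond the smaller or larger windows themselves. Divided by the median of each list, an alternative chosen after seeing the data, 3 in place of 1 member regions open in all lists were wider in pNE and its descendants than elsewhere, at CYP26A1, CYP26B1 and ALDH1A3. Of all regions open in all lists, 1.14% had that order when so divided. No paired analysis was possible because each group has 1 list with no values per replicate, and leaving out replicates was not run for the same reason. The lists give no read depth, so a missing peak may be a site under the caller's threshold.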

Other observations

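Some regions at the CYP26A1 and CYP26C1 locus were open in pNE_T and pNE_H and in no other list, including pNE_M. In EXOC6 these were chr10:93015549-93015927 with 310 bp in pNE_T and 158 in pNE_H, chr10:93023013-93023496 with 482 and 195 bp, and chr10:93026774-93027327 with 385 and 554 bp. On the other side, 47.4 kb downstream of the CYP26A1 start, chr10:93120862-93121177 had 137 and 316 bp. In pNE_M alone, chr10:93117996-93118580 had 585 bp. A separate group in EXOC6 was open in the early lists only: chr10:93030518-93030764 had 217 bp in hPSC and 205 in DE, and chr10:93031041-93031199 had 158 and 136 bp. These regions were chosen after their values were seen.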
